A study of Homo sapiens with 10 samples.

Results

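The response of THP1 cells to vitamin D3 was read from 2 of the 10 Affymetrix arrays of a study on colon cancer cells and macrophages. THP1 is a human monocytic leukaemia cell line, which the labels call macrophages. It was grown in RPMI medium with serum, either with no addition (THP1 alone) or with vitamin D3 for 24 hours, and biotinylated cRNA was made from 5 ug of total RNA. The dose of vitamin D3, and whether the cells had been differentiated into macrophages first, are not given in the labels. The other 8 arrays hold HCT116, a colorectal carcinoma line, and its derivative Hke3, each alone, with vitamin D3, in coculture with THP1 cells through shared medium, and in coculture with vitamin D3. Both THP1 arrays come from cells grown without tumour cells. Each condition has 1 array, so every difference below compares 2 cultures, has no replicate check and carries no test.

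Vitamin D3 is converted to its hormone form by hydroxylation in the liver and then in the kidney or in macrophages. The title of the array says only VitD3, which does not tell whether vitamin D3 itself or the hormone was added. The hormone binds the vitamin D receptor, which pairs with a retinoid X receptor on DNA and switches genes on or off. In monocytes the receptor is known for inducing CD14, a co-receptor for bacterial lipopolysaccharide, and CAMP, the precursor of the antimicrobial peptide LL-37, and it induces CYP24A1, the enzyme that breaks the hormone down, in most cells that respond.

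Levels are log2 intensities, on which a step of 1 is 2-fold. Among 19775 genes, 12717 had a level above the median of the whole table, 6.18, on at least 1 THP1 array. A level under that median was set to it before a difference was taken, so a difference with 1 array under the median is a lower bound and is written "at least". By this floored difference, 174 genes were 2-fold or more higher with vitamin D3, which is 1.37% of the 12717, and 51 genes (0.401%) were 2-fold or more lower. At 1.5-fold the counts were 506 (3.98%) and 237 (1.86%). Past 4-fold, 44 genes were higher and 5 were lower, and the 6 genes past 16-fold were all higher. The median difference over all 12717 genes was -0.0068 log2. The plot of one array against the other shows a narrow diagonal with a long tail above it.

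**Figure D1:**
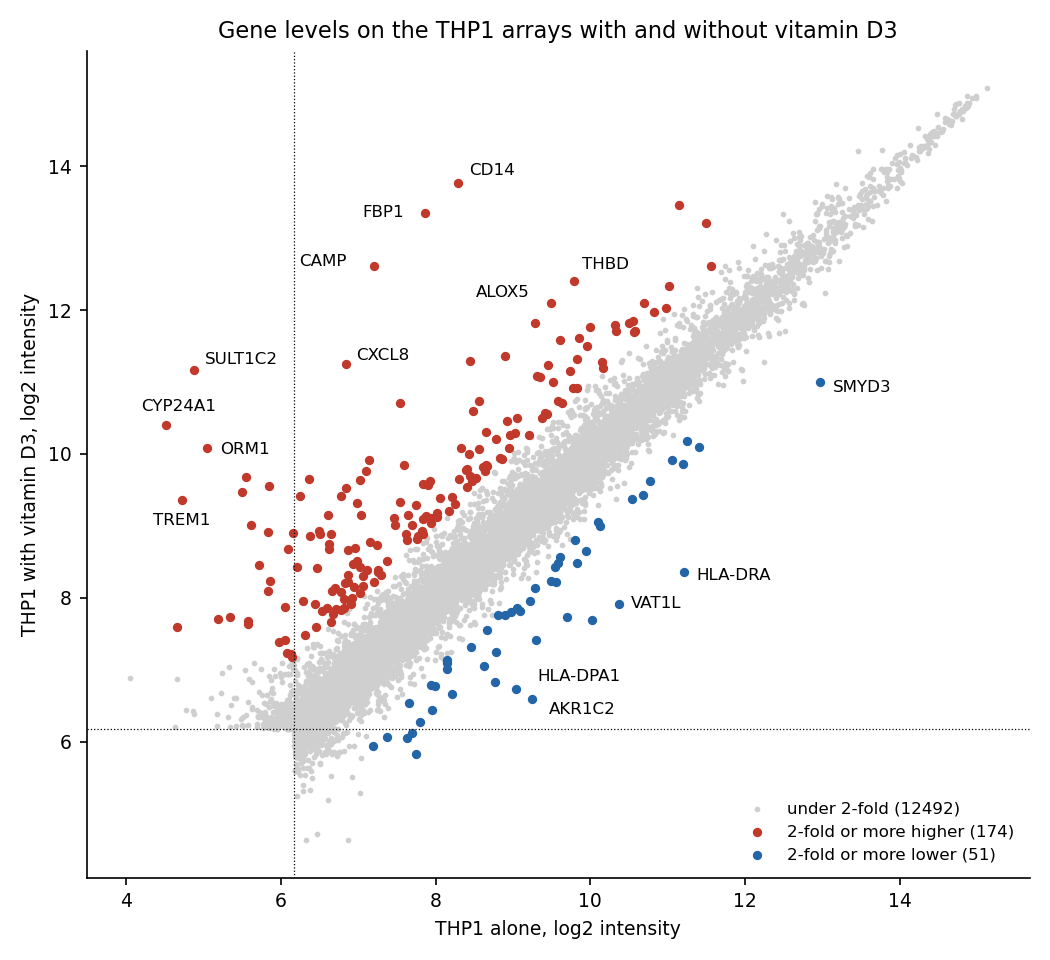
Each point is 1 of the 12717 genes above the table median on at least 1 THP1 array, with its log2 intensity in THP1 alone on the horizontal axis and with vitamin D3 on the vertical axis; dotted lines mark the median of 6.18 log2. The 174 red genes are 2-fold or more higher and the 51 blue genes 2-fold or more lower, and the points farthest from the diagonal, among them CD14, FBP1 and CAMP, lie above it.

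The array labelled vitamin D3 and the array labelled alone differed in the receptor's best known targets. CYP24A1 had a level of 4.51 log2 in THP1 alone, under the median, and 10.40 with vitamin D3, at least 18.7-fold higher. CAMP went from 7.20 to 12.61 log2, 42.4-fold higher, and CD14 from 8.29 to 13.77 log2, 44.4-fold higher. VDR itself, the receptor, was at 8.19 log2 alone and 7.94 with vitamin D3, and its other 2 probe sets differed by -0.36 and -0.34.

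Marker genes were read on both arrays and are given as values. The count was made over markers above the median on at least 1 THP1 array. That filter kept 18 of 19 monocyte, 15 of 22 macrophage, 11 of 17 granule and 8 of 17 epithelial markers with a probe set. It favours markers present in THP1, and the share over all genes was not computed, so the counts are no test of cell type. Of 18 such monocyte markers, 15 were higher on both THP1 arrays than on every colon cancer array, as were 13 of 15 macrophage markers. The same held for 9 of 11 neutrophil and progenitor granule genes, 0 of 8 epithelial markers and 0 of 6 erythroid and platelet markers. The granule proteases ELANE (13.94 and 14.11 log2) and AZU1 (14.05 and 14.19) were bright without and with vitamin D3, as was the chemokine receptor CCR2 (11.75 and 11.27). The macrophage scavenger and mannose receptors MSR1 (4.97 and 5.18 log2) and MRC1 (3.85 and 3.89) were under the median on both arrays, while the haemoglobin scavenger receptor CD163 was at 6.71 and 7.29. The 3' minus 5' difference of the ACTB probe sets, which rises as RNA breaks down, was -0.01 log2 alone and 0.09 with vitamin D3, and that of GAPDH was -0.10 and -0.11. Over 11 genes used as references the median difference was 0.07 log2 and none was past 2-fold.

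Genes known as vitamin D receptor targets in monocytes made up much of the top of the list. This list was drawn up from prior knowledge of such cells and with earlier results of these arrays known, so its direction is not independent evidence. Of its 36 members with a probe set, all above the median on at least 1 array, 20 were 2-fold or more higher and 0 were lower, and 32 lay above 0. The median difference of the list was 1.95 log2, beside -0.0068 over all genes. FBP1, fructose-1,6-bisphosphatase of gluconeogenesis, had the largest floored difference of any gene, from 7.86 log2 alone to 13.35 with vitamin D3, 45.0-fold higher. The floored values of SULT1C2 and CYP24A1 are lower bounds, and their measured differences, 6.28 and 5.88 log2, were larger, so these genes have no order below FBP1. SULT1C2, a cytosolic sulfotransferase, was under the median alone (4.88 log2) and at 11.17 with vitamin D3, at least 31.8-fold higher, and its other 3 probe sets above the median gave 1.24 to 4.60. ORM1, the acute phase protein orosomucoid, went from 5.05 to 10.08 log2, at least 15-fold higher. SULT1C2 and ORM1 were under the median without vitamin D3 and FBP1 above it, and all 3 were above it with vitamin D3.

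Other members of the list were above the median in THP1 alone and higher with vitamin D3. THBD, thrombomodulin, was at 9.78 log2 alone and 12.40 with vitamin D3 (6.13-fold higher), and its other 2 probe sets gave 2.43 and 2.44. G0S2, an inhibitor of triglyceride lipolysis, was at 7.54 and 10.71 log2 (9.03-fold higher), and SPP1, the secreted phosphoprotein osteopontin, at 8.89 and 11.37 (5.57-fold higher). PPARGC1B, a transcriptional coactivator of mitochondrial genes, was at 7.14 and 9.91 log2 (6.82-fold higher), and ASAP2, a GTPase-activating protein for ARF proteins, at 8.45 and 11.30 (7.20-fold higher). The membrane protein NINJ1, which takes part in plasma membrane rupture, was at 8.49 and 10.60 log2, 4.32-fold higher. In each of these 6 genes the array with vitamin D3 was the higher by more than 2 log2 units by the probe set used. The other 2 probe sets of PPARGC1B above the median gave 1.88 and 2.06.

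Several genes of the same list did not follow. ALOX5AP, the partner protein of 5-lipoxygenase, was 1.94-fold lower (11.97 log2 alone, 11.02 with vitamin D3). STAB1, a scavenger receptor, was at 6.93 and 6.87 log2, HLX, a homeobox factor, at 10.50 on both arrays, and CA2, carbonic anhydrase 2, at 13.85 and 13.96. For DENND6B and TMEM37, 2-fold or more higher by the probe set used, another probe set differed by -0.01 and -0.05, so the probe sets of these 2 genes disagree. For ITGAM, the alpha chain of the integrin CD11b, the probe set used gave -0.01 and the other one 2.20.

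**Figure D2:**
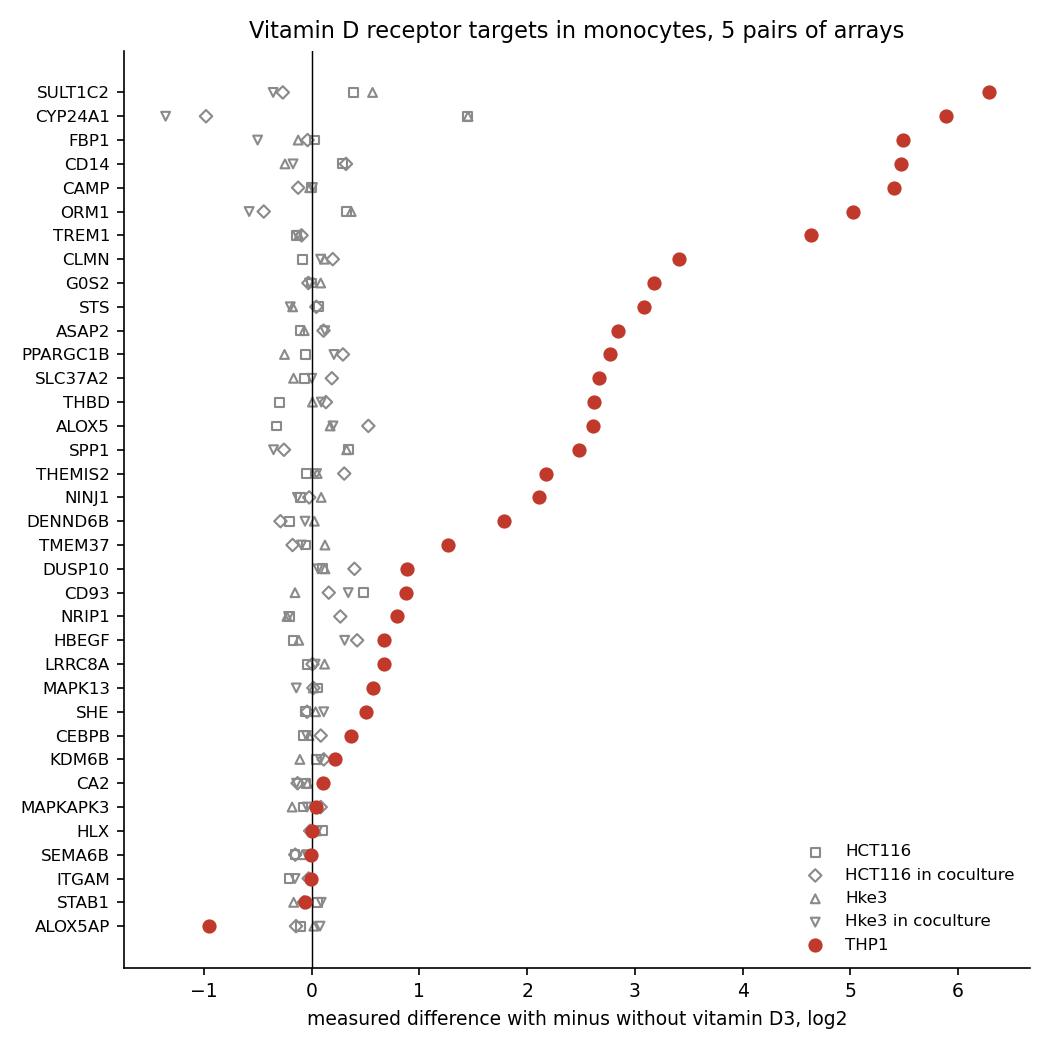
Each row is 1 of the 36 vitamin D receptor targets of monocytes, and each symbol the measured log2 difference with minus without vitamin D3 in 1 pair of arrays, red circles for THP1 and grey outlines for the 4 pairs of colon cancer arrays. The THP1 values run from -0.95 for ALOX5AP to 6.28 for SULT1C2, and the grey symbols lie near 0 in most rows, with CYP24A1 spread between -1.36 and 1.45.

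The rest of the vitamin D system gave small values. Of 12 receptor partners, coregulators and hydroxylases above the median, 1, CYP24A1, was past 2-fold, and the median of the 12 was -0.09 log2. The retinoid X receptors RXRA (10.20 log2 alone, 10.30 with vitamin D3) and RXRB (9.83 and 9.76) were well above the median on both arrays. The activating hydroxylase CYP27B1 was under the median on both, at 5.86 and 5.95 log2. CYP2R1, which adds the first hydroxyl group, was at 7.90 and 7.77 log2.

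Beyond the known targets, the 20 largest higher values included genes of the acute phase, adhesion and transcription elongation. HP, haptoglobin, which binds free haemoglobin, was at 6.36 log2 alone and 9.66 with vitamin D3, 9.81-fold higher. FN1, fibronectin, was at 6.85 and 9.52 log2 (6.39-fold higher), with its other 4 probe sets between 0.25 and 3.40. ELL2, an elongation factor of RNA polymerase II, was at 6.25 and 9.42 log2 (9.0-fold higher), and its other 2 probe sets above the median gave 1.59 and 2.20. TSPAN18, a tetraspanin, was at 5.50 and 9.47 log2 (at least 9.78-fold higher by the probe set used), and its other probe set above the median gave 1.87. RFPL2 (5.85 and 9.56 log2) and RFPL3 (6.16 and 8.91) were at least 10.4-fold and 6.64-fold higher. The calmin gene CLMN (5.61 and 9.02 log2) and STS, steroid sulfatase (5.83 and 8.92), were at least 7.16-fold and 6.69-fold higher by the probe sets used. The other 3 probe sets above the median gave 1.15 to 1.61 for CLMN, and the other 3 of STS 0.96 to 3.34. RFPL2 and RFPL3 are close paralogs, next to each other among the genes above the median, and their probe sets may read each other's transcripts. Among genes just below these, chosen after their values were seen, the bHLH factor MYCL was at 9.29 and 11.82 log2 and ADAMDEC1, a metalloprotease of macrophages, at 11.15 and 13.46. The other probe set of MYCL above the median gave 0.43.

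**Figure D3:**
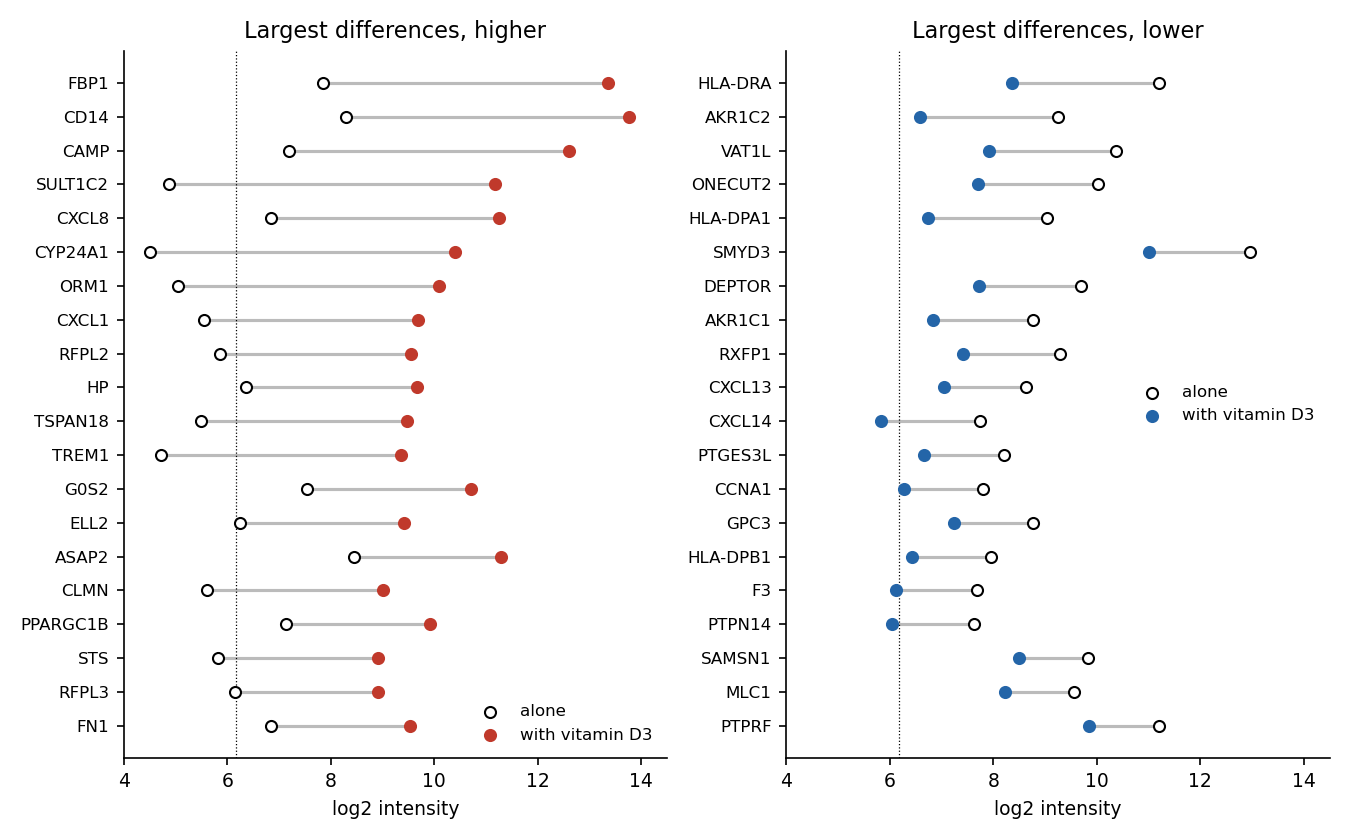
The 20 genes with the largest higher (left, red) and lower (right, blue) floored differences are shown as log2 intensity in THP1 alone (open circles) and with vitamin D3 (filled circles); the dotted line marks the table median. On the left the open circles lie between 4.51 and 8.45 log2 and the filled ones between 8.91 and 13.77; on the right the lines are shorter, the longest being that of HLA-DRA from 11.21 to 8.36.

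Of the chemokines that draw neutrophils, CXCL8, CXCL1 and CXCL2 were past 2-fold. CXCL8, interleukin-8, was at 6.84 log2 alone and 11.25 with vitamin D3, 21.3-fold higher, and its other probe set gave 3.70. CXCL1 was at 5.55 and 9.68 log2 (at least 11.4-fold higher) and CXCL2 at 5.72 and 8.46 (at least 4.85-fold higher). Averaged over all its probe sets, CXCL2 had a floored difference of 0, so its value rests on 1 probe set. CXCL3, which binds the same receptor, was under the median on both arrays, at 5.19 and 5.90 log2, and CXCL5 was at 3.75 on both. CXCL6, of the same group, was under the median alone (4.05 log2) and at 6.88 with vitamin D3. Its floored difference of 0.71 log2 is a lower bound, so it was not counted as past 2-fold. CXCL8, CXCL1 and CXCL2 were thus near or under the median without vitamin D3 and well above it with it.

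The chemokines for monocytes and lymphocytes went both ways. CCL8 was at 6.50 log2 alone and 8.93 with vitamin D3 (5.40-fold higher), and CCL4 at 6.29 and 7.95 (3.16-fold higher). CCL5, which attracts T cells, was at 10.68 and 9.43 log2, 2.38-fold lower, with other probe sets at -0.99 and -0.93. CXCL13, which attracts B cells, was at 8.63 and 7.05 log2 (3.0-fold lower), and CXCL14 at 7.75 and 5.82 (at least 2.97-fold lower, though -0.79 log2 averaged over its probe sets). Of the 21 cytokines and chemokines of the list above the median, which does not hold CCL8, CXCL13 and CXCL14, 4 were 2-fold or more higher and 1 was lower, with a median of 0.11 log2. TNF (5.73 and 5.61 log2), IL6 (5.22 and 5.07), IL10 (4.05 and 4.07) and IL12B (3.55 and 3.22) were under the median on both arrays, and IL1B was at 7.09 and 7.85, 1.69-fold higher.

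The NF-kB genes around them differed less. NF-kB is the family of factors that switches on inflammatory genes, and its feedback inhibitors are among its own targets. Of 15 subunits and feedback genes above the median, 1 was 2-fold or more higher, the mitochondrial superoxide dismutase SOD2 (6.82 log2 alone, 7.98 with vitamin D3), and 0 were lower. NFKBIA, the main inhibitor, was at 11.68 and 12.53 log2 (1.8-fold higher), and the adhesion molecule ICAM1 at 8.14 and 9.11 (1.96-fold higher). TNFAIP3, a feedback enzyme, was at 11.84 and 11.28 log2, 1.47-fold lower. The subunits NFKB1, REL and RELA each differed by 0.12 log2 or less, and the median of the list was 0.12.

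RefSeq promoter sequences (GRCh38.p14) were available for 10237 of the 12717 genes, with entries for 130 of the 174 genes on the higher side and 39 of the 51 on the lower, and the 250 bases before each gene start were searched on both strands. In all, 9 motifs were searched with the differences in view, and the windows printed here were chosen after their matches were seen, to show the letters that the chemokine genes share and the candidates nearest to a vitamin D receptor element. The 9-letter NF-kB motif GGAATTTCC was found for 53 genes (0.518%). Among the higher genes it was found for 3, CXCL8, CXCL1 and CXCL2, and among the lower for 0. The median difference of all 53 genes was 0.01 log2, and 3 of the 53 were past 2-fold. The windows below run 5′ to 3′ in the direction of the gene, with the motif in capitals.
CXCL8, chr4:73740453-73740511, + strand: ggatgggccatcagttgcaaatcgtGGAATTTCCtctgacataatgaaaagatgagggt
CXCL1, chr4:73869290-73869348, + strand: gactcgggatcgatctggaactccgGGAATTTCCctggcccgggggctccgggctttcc
CXCL2, chr4:74099239-74099297, - strand: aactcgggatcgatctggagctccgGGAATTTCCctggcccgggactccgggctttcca

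The motif ends 83, 70 and 69 bases before the gene start in CXCL8, CXCL1 and CXCL2. The windows of CXCL1 and CXCL2 are nearly identical beyond the motif, so their matches are not independent. The vitamin D receptor binds direct repeats of a 6-letter half-site with a spacer of 3 letters, and the half-sites searched were AGGTCA, the variant spelling AGTTCA, the further spelling GGGTCA and, last, the spelling GGTTCA. A repeat of exact half-sites was found for 9 genes (0.0879%), of which 1, CCL8, was 2-fold or more higher and 0 were lower. With up to 1 other letter allowed in each half-site, a looser form that contains the exact one, 1026 genes (10%) had a repeat, against 23 of 130 genes (17.7%) on the higher side and 7 of 39 (17.9%) on the lower. CD14 and G0S2 were among the 23. The capitals below mark the repeat, which reads on the opposite strand in CD14 and G0S2.
CCL8, chr17:34319185-34319241, + strand: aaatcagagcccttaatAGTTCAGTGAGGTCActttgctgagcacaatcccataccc
CD14, chr5:140633191-140633255, - strand: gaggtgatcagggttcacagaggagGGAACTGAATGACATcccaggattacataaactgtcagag
G0S2, chr1:209675306-209675370, + strand: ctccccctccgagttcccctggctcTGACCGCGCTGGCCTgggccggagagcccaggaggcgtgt

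Shares for the other 6 motifs searched are given in the order all 10237 genes, 130 higher genes, 39 lower genes. A single exact half-site was found for 36.1%, 43.1% and 64.1%, and GAGGAA, the core bound by the myeloid factor PU.1, for 29.4%, 42.3% and 46.2%. The NF-kB consensus with variable letters was found for 15.8%, 10% and 15.4%, with CXCL1 and CXCL2 among the higher genes that had it and CXCL8 not. CCAAT was found for 41.2%, 44.6% and 41%, TGACG for 34.9%, 31.5% and 30.8%, and CTGATTGG for 6.07%, 6.15% and 5.13%. A match is a run of letters and not a bound site, and no difference between these shares was tested.

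Some receptors and secreted proteins of innate recognition were higher beside CD14, and most of the lists they belong to was not past 2-fold. TREM1, an activating receptor that amplifies inflammatory signals, was under the median alone (4.72 log2) and at 9.36 with vitamin D3, at least 9.10-fold higher. C5AR1, the receptor of the complement fragment C5a, was at 7.04 and 9.15 log2 (4.33-fold higher), and CFP, properdin, which stabilises the complement convertase, at 7.93 and 9.63 (3.25-fold higher). LY96, which holds lipopolysaccharide for TLR4, was at 8.05 and 9.39 log2, 2.54-fold higher, and the peptidoglycan sensor NOD2 at 8.63 and 9.76, 2.19-fold higher. LY96 was the 1 gene past 2-fold among 16 Toll-like receptors and adaptors above the median, with 0 lower and a list median of 0.03. TLR4 itself was at 7.90 and 7.82 log2 and TLR2 at 11.74 and 11.60, so both receptors were near equal on the 2 arrays. CD180, a relative of TLR4, was at 8.20 and 7.24 log2, 1.94-fold lower. Of 16 Fc and complement receptors and integrins above the median, 1 was 2-fold or more higher, C5AR1, and 1 lower, the integrin chain ITGAL (9.54 log2 alone, 8.43 with vitamin D3, 2.15-fold lower; -0.49 by its other probe set), with 7 above 0, 9 below and a median of -0.02.

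Antimicrobial and phagocyte genes split by gene. Of 8 antimicrobial genes above the median, 3 were 2-fold or more higher, CAMP, LYZ and SLPI, and 1 was lower. LYZ, lysozyme, was at 9.45 log2 alone and 11.23 with vitamin D3 (3.42-fold higher; 0.78 log2 by its other probe set), and the protease inhibitor SLPI at 10.50 and 11.82 (2.49-fold higher). The calgranulins, calcium-binding proteins of neutrophils and monocytes, were lower, with S100A12 at 9.94 and 8.65 log2 (2.44-fold lower), S100A9 at 11.22 and 10.52 (1.62-fold lower) and S100A8 at 13.64 and 13.23 (1.33-fold lower). In the phagocyte NADPH oxidase, which makes superoxide, NCF1 was at 7.59 and 9.85 log2, 4.77-fold higher, and 0 of 7 members were 2-fold lower. NCF1 has near-identical copies in the genome, so its value may include theirs. The catalytic subunit CYBB was at 10.16 and 10.34 log2 and CYBA at 13.58 and 13.44.

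Markers of monocytes and macrophages went both ways. Of 18 monocyte markers above the median, 2 were 2-fold or more higher (CD14 and LYZ) and 2 lower (S100A12 and the proteoglycan VCAN, 8.98 log2 alone and 7.80 with vitamin D3), with a median of -0.02. Of 15 macrophage markers, 1 was higher (SPP1) and 1 lower (C1QC, a chain of complement C1q, 7.65 and 6.54 log2), with a median of -0.0048. GPNMB, a membrane glycoprotein of macrophages, was at 10.94 and 11.87 log2, and the gelatinase MMP9 at 9.74 and 8.81. Of 11 neutrophil and progenitor genes, 1 was past 2-fold, the progenitor receptor FLT3, at 9.29 and 8.14 log2 (2.22-fold lower). The progenitor receptor KIT was near the median alone (6.33 log2) and under it with vitamin D3 (4.63). Both arrays are bulk samples, in which fewer cells of a type and less RNA per cell cannot be told apart.

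MHC class II genes had the lowest median of the 46 gene lists. These genes encode the molecules that present peptides to helper T cells. Of 9 members above the median, 0 were 2-fold or more higher and 4 lower, 8 lay below 0, and the list's median was -0.81 log2. HLA-DRA was at 11.21 log2 alone and 8.36 with vitamin D3, 7.21-fold lower and the largest lower floored difference of any gene, and its other probe set gave -3.10. HLA-DPA1 was at 9.04 and 6.73 log2 (4.97-fold lower), HLA-DPB1 at 7.95 and 6.43 (2.86-fold lower) and the peptide exchange subunit HLA-DMA at 8.80 and 7.76 (2.06-fold lower). Averaged over its probe sets, HLA-DPB1 was under the median on both arrays, a floored difference of 0. The DR and DP chains were thus lower together by the probe sets used, and HLA-DPA1 with vitamin D3 was close to the median.

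The other members of the class II list were lower by less or varied by probe set. HLA-DRB1, the partner chain of HLA-DRA, was at 11.78 log2 alone and 11.15 with vitamin D3, and probe sets of this gene can read its near-identical relatives. CD74, the invariant chain, was at 12.51 and 11.71 log2, 1.75-fold lower, but its other 2 probe sets gave -0.04 and 0.29. CIITA, the master regulator of class II genes, was under the median on both arrays, at 5.75 and 5.72 log2. MHC class I and peptide loading genes gave values near 0: of 13 above the median, 0 were past 2-fold in either direction, and the list's median was -0.02, with B2M, the light chain, at 14.38 and 14.45 log2.

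The genes of both PD-1 ligands were higher with vitamin D3. CD274, which encodes PD-L1, a ligand that restrains T cells, was just under the median alone (6.09 log2) and at 8.68 with vitamin D3, at least 5.69-fold higher, and its other probe set gave 4.33. PDCD1LG2, the second ligand of the same receptor, was at 5.35 and 7.74 log2, at least 2.95-fold higher. Of 21 leukocyte immunoglobulin-like and inhibitory receptor genes above the median, 3 were 2-fold or more higher, TREM1, CD274 and SIRPB2, 0 were lower and 17 lay above 0, with a median of 0.48. That list also holds activating receptors, of which TREM1 is one. LILRB1, which binds class I molecules, was at 8.81 and 9.45 log2, and SIGLEC1, a sialic acid receptor, at 7.32 and 8.05.

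**Figure D4:**
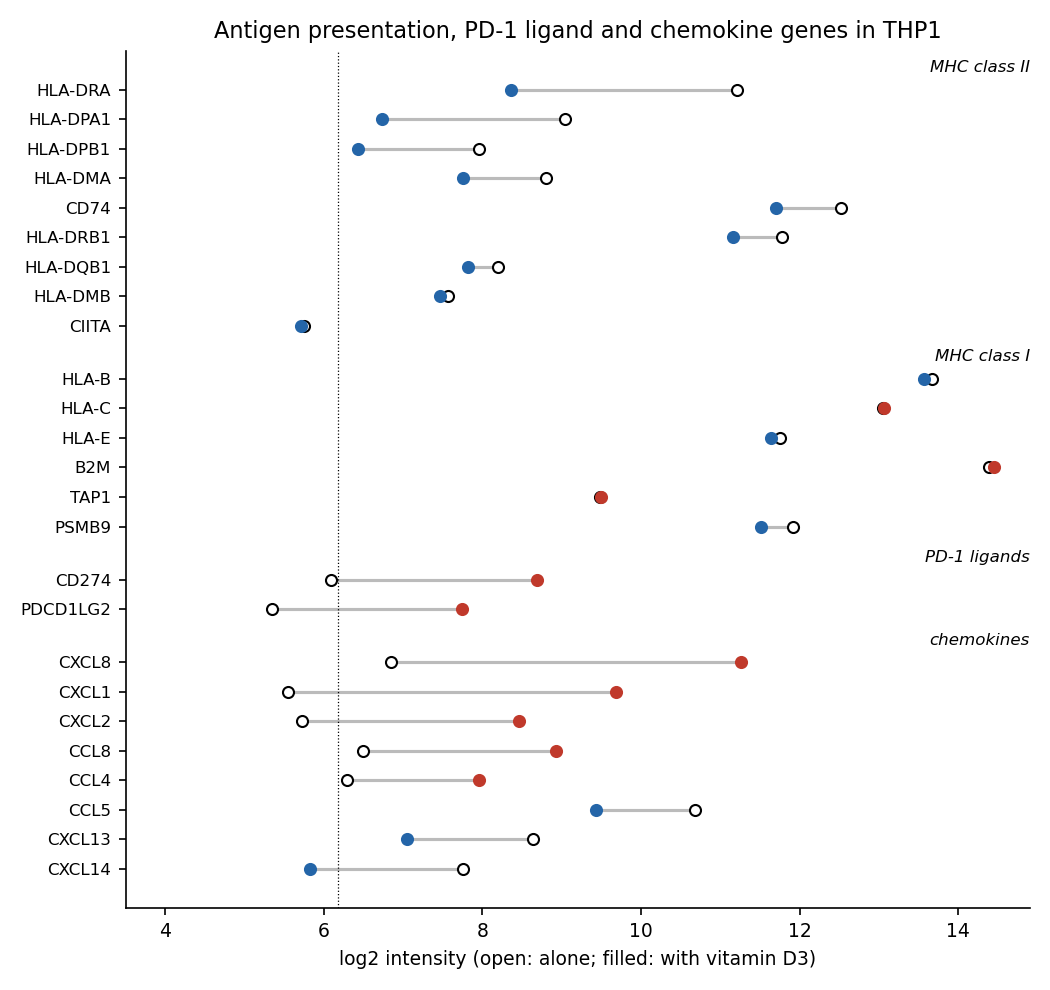
Log2 intensities of selected antigen presentation, PD-1 ligand and chemokine genes in THP1 alone (open circles) and with vitamin D3 (filled circles, red where higher and blue where lower); the dotted line marks the table median. The class II chains HLA-DRA, HLA-DPA1 and HLA-DPB1 lie to the left, the circles of the 6 class I genes shown nearly coincide, and CD274, PDCD1LG2, CXCL8, CXCL1 and CXCL2 lie to the right of open circles near or under the median.

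Interferon-stimulated genes lay slightly above 0. Of 29 above the median, 24 had a positive difference, 1 was 2-fold or more higher and 0 were lower, with a median of 0.30 log2. The 1 gene was IFIT2, an RNA-binding antiviral protein, at 8.31 log2 alone and 9.65 with vitamin D3 (2.54-fold higher). IFIT1 (9.70 and 10.38) and IFIT3 (8.98 and 9.64) were 1.61-fold and 1.59-fold higher.

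In lipid mediator synthesis, the enzymes of the leukotriene branch were higher and their partner protein lower. ALOX5, 5-lipoxygenase, was at 9.49 log2 alone and 12.10 with vitamin D3, 6.12-fold higher, and its other 2 probe sets gave 2.08 and 2.83. LTC4S, leukotriene C4 synthase, was at 7.06 and 8.16 log2 (2.15-fold higher), and LTA4H, which makes leukotriene B4, at 11.18 and 11.93 (1.68-fold higher). PLA2G7, which degrades platelet-activating factor, was at 7.02 and 8.43 log2 (2.66-fold higher). Against these stood ALOX5AP, 1.94-fold lower as given above, and the leukotriene receptor CYSLTR1, at 9.91 and 9.10 log2. PTGS1, a prostaglandin synthase, was at 9.31 and 9.39 log2, and PTGS2 was under the median on both arrays. Of the 10 eicosanoid genes above the median, 3 were 2-fold or more higher and 0 lower, with a median of 0.09.

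Coagulation genes at the cell surface differed in opposite directions. Beside thrombomodulin, which turns thrombin to an anticoagulant role, F3, tissue factor, which starts coagulation, was at 7.69 log2 alone and 6.12 with vitamin D3, at least 2.86-fold lower. PLAU, urokinase, was at 9.05 and 10.50 log2 (2.72-fold higher), and its receptor PLAUR at 9.22 and 9.59. Of 9 such genes above the median, 2 were 2-fold or more higher and 1 lower, with a median of -0.18.

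Some transcription factors of myeloid cells were higher and the lineage factors near equal. KLF4, a factor of monocyte differentiation, was at 9.51 log2 alone and 10.99 with vitamin D3 (2.79-fold higher), MAF at 6.05 and 7.87 (at least 3.25-fold higher) and the lipid-sensing receptor PPARG at 7.95 and 9.04 (2.14-fold higher). The other 2 probe sets of MAF above the median gave 0.36 and 2.60, and the average of all its probe sets a floored difference of 0. These were the 3 past 2-fold among 26 factors and CSF receptors above the median, with 0 lower and a median of 0.18. SPI1, which encodes PU.1, was at 7.68 and 7.84 log2, CEBPA at 11.70 and 12.03 and IRF8 at 11.87 and 11.65. GFI1, a repressor of progenitors and granulocytes, was at 10.17 and 9.70 log2, and MYB, a progenitor factor, at 12.48 and 12.10.

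In metabolism, FBP1 stood alone among the sugar enzymes. Of 24 genes of glycolysis and gluconeogenesis above the median, it was the 1 past 2-fold, and the median of the list was 0.14 log2. The transporter SLC2A6 came next, at 9.07 log2 alone and 10.03 with vitamin D3 (1.94-fold higher), while GAPDH (14.31 and 14.28) and LDHA (13.67 and 13.65) hardly differed. In the lysosome, the asparaginyl protease LGMN (6.94 and 8.47 log2, 2.89-fold higher) and the aspartyl protease CTSD (8.41 and 9.79, 2.61-fold higher) were the 2 of 19 members past 2-fold, and LAMP1 was at 12.77 on both arrays. All 20 subunits of mitochondrial complex I, which passes electrons from NADH into the respiratory chain, lay above 0, from 0.03 to 0.79 with a median of 0.36, and 0 reached 2-fold. NDUFB5 had the largest difference of them, from 12.26 to 13.05 log2.

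DNA replication and mitosis genes were slightly lower. All 26 DNA replication genes lay below 0, from -0.75 to -0.10, with a median of -0.36 log2, and all 24 mitosis genes lay below 0, from -0.47 to -0.04, with a median of -0.26. No gene of either list was past 2-fold. The list of G1 cyclins, CDK inhibitors and E2F factors, which control entry into replication, was split, with 8 of 17 genes above 0, 9 below, 0 past 2-fold and a median of -0.04. CDC6, which loads the replicative helicase, was at 9.56 log2 alone and 8.80 with vitamin D3 (1.69-fold lower), MCM2, a helicase subunit, at 12.57 and 12.03 (1.46-fold lower), and the mitotic kinesin KIF2C at 11.56 and 11.10 (1.38-fold lower). Over all 12717 genes 6171 lay above 0 and 6536 below, so the members of both lists shared 1 sign where the whole was about evenly split, at differences far below 2-fold. Each of the 7 alternatives that gives a value per gene also put all 26 and all 24 below 0. All 7 read the same 2 arrays, so this is no further evidence and tells nothing of replicate cultures.

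Genes of the amino acid response and of metal binding were mixed, with more members below 0 than above. Of 17 genes of the ATF4 amino acid response, 1 was 2-fold or more lower, the asparagine synthetase ASNS (10.10 log2 alone, 9.05 with vitamin D3, 2.07-fold lower; -0.65 log2 averaged over its probe sets), 0 were higher, and 5 lay above 0 and 12 below. The glutathione-degrading enzyme CHAC1 was at 7.72 and 6.80 log2, and the amino acid transporter SLC7A5 at 9.45 and 8.59. The metallothioneins MT1X (12.02 and 11.43 log2) and MT2A (12.17 and 11.63), which bind zinc, were 1.5-fold and 1.46-fold lower. Of the 10 metallothioneins and zinc transporters above the median, 4 lay above 0, by up to 0.38 log2, and 6 below, 0 were past 2-fold and the median was -0.35. Metallothioneins are near-identical in sequence, so their probe sets are not independent.

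The other large lower values were spread over genes of different roles. AKR1C2 (9.24 log2 alone, 6.59 with vitamin D3, 6.30-fold lower) and AKR1C1 (8.76 and 6.83, 3.81-fold lower) are adjacent, nearly identical aldo-keto reductases of steroid metabolism, so their values may be 1 signal read by both. Averaged over its probe sets, AKR1C1 differed by -0.58 log2. VAT1L was at 10.36 and 7.92 log2 (5.44-fold lower), and ONECUT2, a homeobox factor of liver and nerve, at 10.02 and 7.70 (4.99-fold lower). The other 3 probe sets of ONECUT2 above the median gave -2.12 to -0.37. DEPTOR, an inhibitor of the kinase mTOR, was at 9.69 and 7.73 log2 (3.89-fold lower; -0.50 averaged over its probe sets), and SMYD3, a lysine methyltransferase, at 12.97 and 11 (3.90-fold lower). RXFP1, the relaxin receptor, was at 9.29 and 7.42 log2 (3.67-fold lower), and the cyclin CCNA1 at 7.80 and 6.27 (2.90-fold lower). The remaining genes among the 20 were PTGES3L (8.21 and 6.66 log2, 2.92-fold lower), the glypican GPC3 (8.78 and 7.24, 2.89-fold lower), SAMSN1 (9.83 and 8.49, 2.53-fold lower), MLC1 (9.55 and 8.22, 2.53-fold lower) and the receptor phosphatase PTPRF (11.19 and 9.86, 2.52-fold lower). PTPN14, a tyrosine phosphatase, was at least 2.74-fold lower by the probe set used, and its other probe set gave -0.09.

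**Figure D5:**
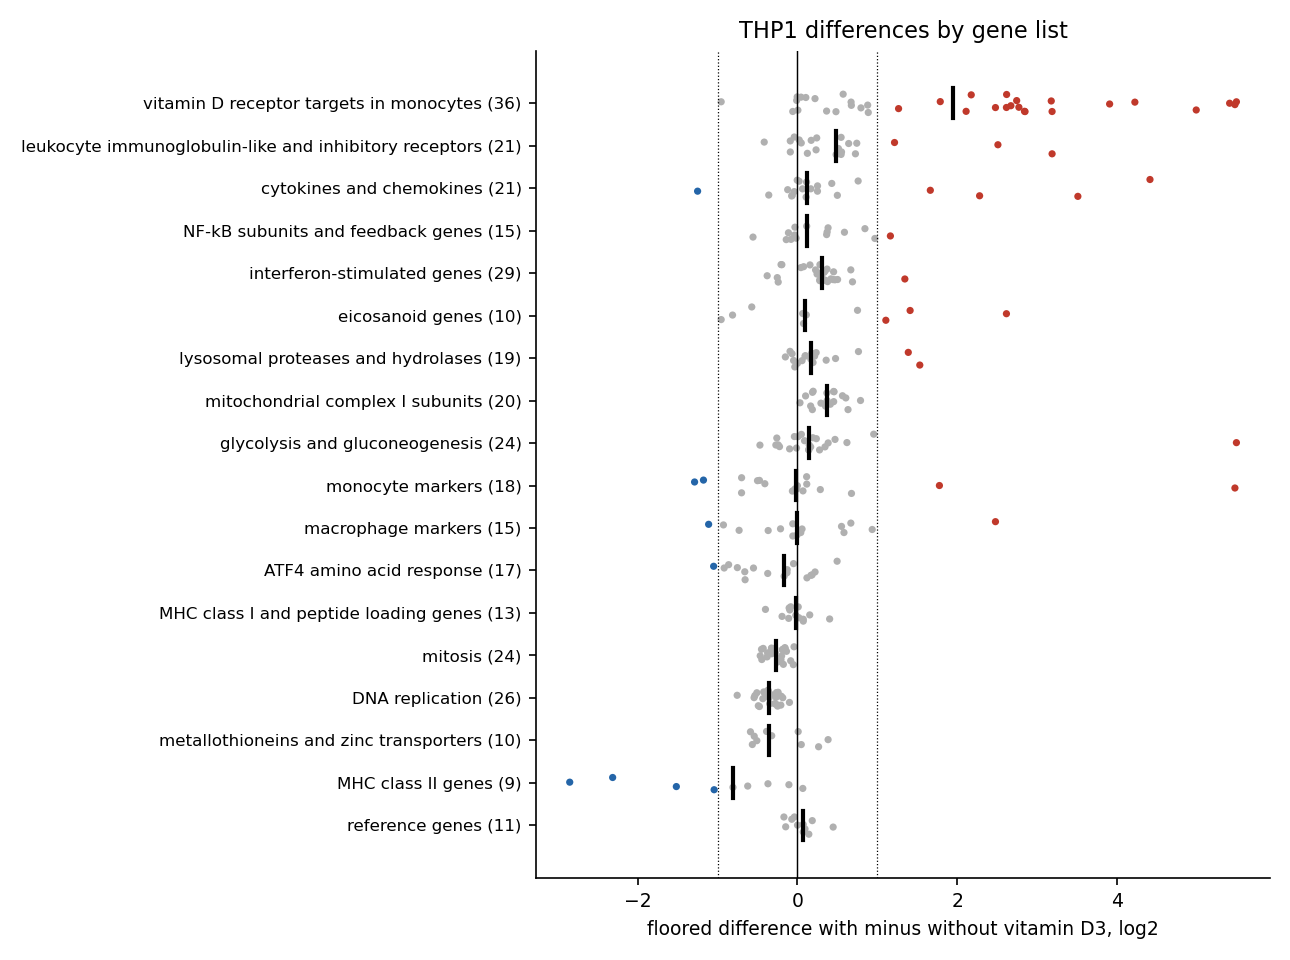
Each point is a gene above the table median on at least 1 THP1 array, by its floored log2 difference with minus without vitamin D3; rows are gene lists with the number of genes in brackets, black bars are list medians, dotted lines mark 2-fold, and red and blue points are past it. The bar of the vitamin D receptor targets lies at 1.95 and that of MHC class II genes at -0.81; complex I lies wholly to the right of 0, and mitosis and DNA replication wholly to the left.

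Of 12708 genes placed in RefSeq gene order, 225 were past 2-fold. Only genes above the median on at least 1 THP1 array were placed, so other genes can lie between neighbours in this order. Among the 225 were 7 pairs of such neighbours, 5 both higher, 2 both lower and 0 opposite, a number with no test from which nothing is read. CAMP lies beside ZNF589, a zinc finger gene (8.61 log2 alone, 9.82 with vitamin D3, 2.32-fold higher). NINJ1 lies beside CARD19 (8.47 and 9.63 log2, 2.24-fold higher; 0.60 averaged over its probe sets). CD274 lies between PLGRKT, a plasminogen receptor (10.14 and 11.28 log2, 2.20-fold higher), and PDCD1LG2. CD274 and PDCD1LG2 are related genes, as are those of the other 3 pairs, RFPL2 with RFPL3, AKR1C1 with AKR1C2 and HLA-DPA1 with HLA-DPB1.

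Set beside the colon cancer arrays, the spread of differences was wider in THP1. The standard deviation of the floored differences over genes was 0.36 log2 in THP1 and between 0.13 and 0.15 in the 4 pairs of colon cancer arrays with and without vitamin D3. In those 4 pairs, 1 gene (0.00777%) was 2-fold or more higher in HCT116 alone, 0 in HCT116 in coculture, 5 (0.0392%) in Hke3 alone and 1 (0.00783%) in Hke3 in coculture, and 2 genes (0.0157%) were 2-fold or more lower in Hke3 in coculture and 0 in the other 3. CYP24A1, the target gene that colon cells share, differed by 1.44 and 1.45 log2 in the monocultures of HCT116 and Hke3 and by -0.98 and -1.36 in their cocultures. FN1 turned sign in the same pairs, at 0.70 and 0.95 log2 in the monocultures and -0.70 and -1.0 in the cocultures, and SULT1C2 did so at 0.39 and 0.57 against -0.27 and -0.36. Every direction in coculture rests on the labels of those 4 arrays, and whether the labels with and without vitamin D3 are exchanged there was not tested. CAMP differed by -0.13 to 0.01 and CD14 by -0.25 to 0.32 in the 4 pairs, with levels of 6.68 to 6.90 and 5.24 to 5.64 log2 on the colon arrays. Cell line, array and culture cannot be told apart in this comparison, and no difference between THP1 and the colon lines was tested.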

How the data were processed

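The authors hybridised 1 one-colour Affymetrix array per condition and deposited log2 intensities of 54675 probe sets, made with RMA (background correction, quantile normalisation and probe summary) through the R package affy, per the submitters' processing notes. Versions, and whether the 10 arrays were normalised together, are not given in the sources used here. Array medians lay between 6.15 and 6.21 log2. Intensities carry no depth; precision is limited by the number of arrays, and nothing tells how far replicate cultures would differ.

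Arrays were grouped by their titles. Symbols from the platform annotation were updated through RefSeq gene IDs: 41097 probe sets had 1 symbol, 1801 had several and were left out, 11721 had none, and 62 were control probe sets. Where a gene had several probe sets, the one with the highest mean over the 10 arrays stood for it. A gene was counted as 2-fold or more higher or lower by its floored difference (levels under 6.18 log2, the table median, set to it). The rule for names takes the 20 largest differences each way that no other probe set above the median reverses, up to 6 members with the largest differences from each of 46 gene lists, and VDR, CYP24A1, CAMP and CD14, whatever their values. Not every list, nor every list member it takes, is described; genes named outside this rule were chosen after their values were seen. Members and lists were chosen with earlier results of these data known. Members of a list with no probe set of their own are not analysed here. The spread between probe sets of 1 gene, pooled over 6178 genes with 2 or more above the median, was 0.21 log2 (SD).

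Alternatives were no floor, a floor at the 75th percentile (8.14 log2), other choices of probe set, median centring, cyclic loess normalisation (limma 3.58.1 in R 4.3.3) and other fold limits. The calling steps were also run on a simulated pair of arrays in which 200 bright genes were changed by known amounts. Its noise was set to the mean spread of the 4 colon cancer pairs, which is narrower than in THP1. That run checks the code and tells nothing of whether the calls reported here would recur in replicate cultures. Python 3.11.15 was used.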

Additional observations from a re-analysis of the deposited data

Results flagged for a closer look

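Both results are given as values with no explanation. CTSD, the lysosomal aspartyl protease, was 1.39 log2 higher with vitamin D3 in THP1, while all 4 colon cancer pairs gave a lower value with vitamin D3, -0.23 in HCT116, -0.16 in HCT116 in coculture, -0.15 in Hke3 and -0.09 in Hke3 in coculture. The signs of the 2 coculture pairs rest on labels under which CYP24A1 is lower with vitamin D3, and the standard deviation of the differences over genes was 0.13 to 0.15 log2 in the colon pairs. It was picked out because the signs oppose in every pair, and the difference between the cell types was not tested.

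Probe sets with no gene symbol were used in no comparison above. Of 3452 that were above the median on at least 1 THP1 array, 27 were 2-fold or more higher and 10 lower with vitamin D3. Over the 12717 genes with a symbol the shares were 1.37% and 0.401%, so these counts are not large for their number. The largest difference was that of a probe set at 6.33 log2 alone and 8.75 with vitamin D3, a difference of 2.43, and its gene is not named here.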

How the results depend on the processing

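With the floor at the 75th percentile, 97 genes were 2-fold or more higher and 26 lower (174 and 51 as reported), since that floor shortens differences from dim levels and leaves fewer genes. Probe sets counted singly gave 316 and 98, and averaging the probe sets of each gene gave 136 and 32. At 1.5-fold the counts were 506 and 237, and at 3-fold 65 and 10. The other 5 settings (no floor, the highest mean over the THP1 arrays, median centring and both loess fits) gave 178 to 198 higher and 48 to 62 lower, and shared 168 to 174 and 48 to 51 genes with the reported ones. Of 86 genes named here that were past 2-fold, none took the opposite sign under the alternatives run. CXCL2, HLA-DPB1, MAF and PTPN14 fell to 0 when probe sets were averaged. All alternatives read the same 2 THP1 arrays, and the rule for names leaves out genes that another probe set reverses. Kept signs were thus largely set in advance and tell nothing of replicate cultures. Averaging probe sets put 15 of the 86 under 2-fold (AKR1C1, ASNS, CARD19, CXCL14, CXCL2, DEPTOR, GPC3, HLA-DPB1, ITGAL, JAG1, MAF, PTPN14, RHOBTB3, SAMSN1 and SERINC2), and the highest mean over the THP1 arrays put LYZ and ITGAL under it. These counts leave out the floor at the 75th percentile, which put further named genes under 2-fold. Among them were CD274 (0.54 log2), CCL8 (0.78), HLA-DPA1 (-0.90) and HLA-DMA (-0.66), while CD14 (5.47) and HLA-DRA (-2.85) kept their values. The medians of the vitamin D receptor partner, monocyte, macrophage, granule, MHC class I, coagulation and reference lists, between -0.18 and 0.07 as reported, took the other sign in 1 or 2 settings. That of the Fc and complement receptors and integrins, -0.02 as reported, took the other sign in 4 settings and reached 0.12. Of the 174 higher genes, 89 had another probe set above the median, of the same sign in 83 and opposite in 6 (JAG1, SCARA5, DENND6B, SERINC2, TMEM37 and RHOBTB3). Of the 51 lower genes 23 did, all of the same sign. Differences of 25 higher and 5 lower genes are lower bounds. No paired analysis was possible because only 1 array stands for each condition, and no replicate could be left out.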
